A study of Mus musculus with 4 samples.

Results

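The genes described here are 10 genes of the hypoxia response and of glycolysis, namely Adm, Vegfa, Egln3, Bnip3, Ankrd37, Car9, Slc2a1, Pgk1, Ldha and Pdk1, out of 27674 gene names on a mouse whole-genome microarray. They were chosen as genes induced by hypoxia-inducible factor (HIF) and enzymes of glycolysis that had looked slightly higher in both tissues without Rest, so their difference between genotypes is a description and was not tested. Every probe named for 1 of them was taken, which gave 16 probes and 34 spots among 41174 probes. All 16 were well above background and none was saturated on any of the 4 arrays. The choice held less well for some members than for others. Car9 was lower, not higher, in limb without Rest, and Vegfa differed there by 0.04 log2.

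The RNA came from limb and from brain of embryos collected at E13.5, with a genetic background of 129 and C57BL/6. The groups were wild type limb, limb with conditional Rest knockout (CKO), wild type (WT) brain and CKO brain, with 1 array each. Rest-floxed mice received doxycycline from E8.5 onward to switch on inducible Cre alleles in utero, and the labels record that treatment for the WT samples as well. The labels name neither the promoter that drives Cre nor the part of Rest that is floxed, and do not say whether an RNA came from 1 embryo or from a pool. With 1 array per group, CKO and WT of a tissue could not be tested against each other, and the differences between embryos are not known.

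The 75th percentile of signal ranged from 777 on the WT limb array to 1001 on CKO brain, and each array was set to its own percentile. Spots well above background made up 62.7% to 70.7% of 43379. Rest itself, the targeted repressor of neuronal genes, was 4.01 to 17.1-fold lower in CKO limb over its 3 probes. In CKO brain it was 1.88 and 11.9-fold lower at the 2 probes above background. Of the pan-neuronal markers on the array, all 9 were detected in both brain samples. All 8 limb mesenchyme markers were detected in both limb samples, while Tbx5, Tbx4, Hoxd13 and Hand2 were not above background in WT brain.

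HIF is a transcription factor whose alpha subunit is hydroxylated by prolyl hydroxylases when oxygen is present and is then destroyed through the VHL protein. When oxygen is scarce the alpha subunit pairs with Arnt and binds short DNA elements with an RCGTG core. Its targets carry out glucose uptake, glycolysis, diversion of pyruvate from mitochondria to lactate, acid export, vessel growth and removal of mitochondria. Tissues of the midgestation embryo are poorly oxygenated in places, and both limb cartilage and the neural tube are known sites of HIF activity.

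The sequences before the gene starts show where such cores lie in the members. Both strands of the 250 bases before each RefSeq gene start (GRCm38.p6) were searched for the core ACGTG and for the core GCGTG. The former was present for 8 of the 10 genes, against 16.6% of 32851 promoter windows in the table, and 1 or both cores for all 10, against 38.6%. Counted by window, as the shares of the table are, 8 of the 13 member windows held ACGTG and 11 held 1 or both cores. The windows without one were the outer of the 2 Vegfa starts and 1 of the 2 Pdk1 starts. Vegfa thus counted in both gene totals only through its inner start, whose window lies downstream of the outer start. Whether that window acts as a promoter was not tested. Member windows were also richer in G and C, at a median of 59.6% against 52.4%, so the shares are not on an equal footing. The members were also picked as genes of the HIF response and glycolysis, so nothing is read from their higher shares. Windows of the 3 members with the largest differences, of 2 glycolysis enzymes and of Car9 are printed 5′ to 3′, with cores on either strand in capitals.
Adm (chr7:110627407-110627656, + strand): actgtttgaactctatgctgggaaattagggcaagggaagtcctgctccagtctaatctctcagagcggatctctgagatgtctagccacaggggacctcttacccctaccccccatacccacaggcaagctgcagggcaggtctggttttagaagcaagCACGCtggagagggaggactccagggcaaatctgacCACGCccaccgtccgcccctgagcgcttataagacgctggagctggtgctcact
Egln3 (chr12:54203875-54204124, - strand): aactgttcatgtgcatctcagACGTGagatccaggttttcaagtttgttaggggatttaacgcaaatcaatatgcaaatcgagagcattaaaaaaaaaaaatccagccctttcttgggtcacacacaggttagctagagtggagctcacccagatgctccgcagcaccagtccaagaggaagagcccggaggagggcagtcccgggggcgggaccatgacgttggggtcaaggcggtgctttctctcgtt
Bnip3 (chr7:138909507-138909756, - strand): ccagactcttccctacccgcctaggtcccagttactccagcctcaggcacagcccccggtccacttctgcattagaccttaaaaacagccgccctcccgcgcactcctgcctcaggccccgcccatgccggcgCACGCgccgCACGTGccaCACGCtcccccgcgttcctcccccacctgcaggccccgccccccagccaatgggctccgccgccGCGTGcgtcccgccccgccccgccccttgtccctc
Pgk1 (chrX:106186850-106187099, + strand): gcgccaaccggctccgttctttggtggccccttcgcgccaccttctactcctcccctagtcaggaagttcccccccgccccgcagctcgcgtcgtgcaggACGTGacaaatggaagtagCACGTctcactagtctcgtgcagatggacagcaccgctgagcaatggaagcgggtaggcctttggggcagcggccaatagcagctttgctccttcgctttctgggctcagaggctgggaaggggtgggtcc
Ldha (chr7:46845554-46845803, + strand): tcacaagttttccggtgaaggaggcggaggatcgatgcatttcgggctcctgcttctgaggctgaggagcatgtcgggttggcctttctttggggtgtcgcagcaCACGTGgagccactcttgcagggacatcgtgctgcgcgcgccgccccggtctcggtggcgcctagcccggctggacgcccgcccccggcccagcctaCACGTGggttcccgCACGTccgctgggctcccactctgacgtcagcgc
Car9 (chr4:43506776-43507025, + strand): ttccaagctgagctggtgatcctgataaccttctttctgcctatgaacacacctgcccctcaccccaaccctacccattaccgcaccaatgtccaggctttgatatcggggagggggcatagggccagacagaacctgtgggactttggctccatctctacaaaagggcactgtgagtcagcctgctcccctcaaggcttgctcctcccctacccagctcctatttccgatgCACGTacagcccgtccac
The palindrome CACGTG reads ACGTG on both strands and counts as 2 cores, which overlap. Ldha and Bnip3 each held 5 cores, Adm 2 GCGTG cores, Pgk1 2 ACGTG cores, and Egln3 and Car9 1 ACGTG core. The Car9 core lay 13 bases before the start and the Egln3 core 224 bases before it. REST half-sites spelled TTCAGCACC or GGACAGCGC were in none of the 13 member windows on either strand. They occur in 0.301% and 0.304% of all windows, so these letters are rare in any promoter, and other REST sites or distances were not searched.

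In limb, 9 of the 10 genes were higher in CKO than in WT and 6 were at least 1.2-fold higher, the size used here for a call. Of all 16687 genes well above background on both limb arrays, 9.91% passed that size upward. None was 1.2-fold lower, where 13.8% of genes were, and 3 were at least 1.5-fold higher, where 3.6% were. Differences above 0 were seen in 41% of genes. The members were chosen on this contrast, so nothing is read from these comparisons. The median of the 10 was 0.37 log2 (1.29-fold), against -0.03 over all genes. In brain all 10 were above 0 and 5 were at least 1.2-fold higher, where 9.02% of 17103 genes passed and 42.6% were above 0. None was 1.2-fold lower (5.86% of genes) or 1.5-fold higher (2.72%). The brain median was 0.24 log2 (1.18-fold), against -0.02. Technical error was small beside most of these values. For probes printed as 10 spots, all above background, spot-to-spot differences between CKO and WT had a median SD of 0.042 log2 over 131 probes in limb and over 128 probes in brain. That SD covers neither labelling nor embryos. Without scaling between arrays, 38.3% of all genes in limb and 19.5% in brain passed upward, and 9 and 8 of the members. In whole tissue, a change in the number of cells of a type and a change in RNA per cell cannot be told apart.

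**Figure D1:**
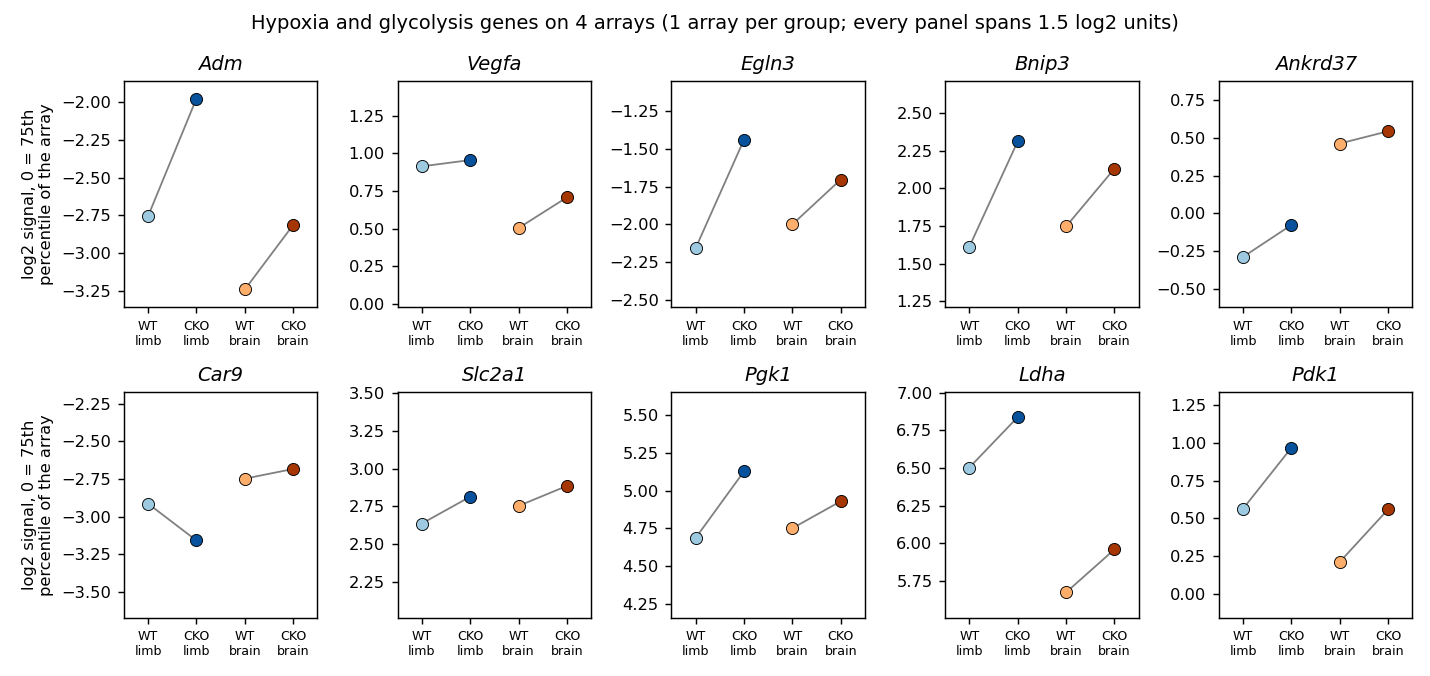
Log2 signal of each gene, taken at its brightest probe, on the 4 arrays, with 0 at the 75th percentile of the array, grey lines joining WT to CKO within a tissue and every panel spanning 1.5 log2 units. Adm, Egln3 and Bnip3 have the steepest lines in limb, and Car9 alone is lower in CKO limb, at -3.16 against -2.91.

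Among the secreted products, Adm encodes adrenomedullin, a vasodilator peptide needed for blood and lymph vessel development. Its probe lay on chromosome 7 from 117773088 to 117773147 (mm9, as are all probe positions). The signal was -2.76 (WT) and -1.98 (CKO) in limb, and -3.24 (WT) and -2.81 (CKO) in brain on the log2 scale where 0 is the 75th percentile of the array. Adm was higher in CKO in both tissues, by 1.72-fold in limb and 1.35-fold in brain. These were the highest differences among the members on this scale, but they depended on the background correction. With normexp correction Adm differed by 0.50 log2 in limb, below Bnip3 (0.69) and Egln3 (0.53), and by 0.20 in brain, under the size for a call. The technical SD at that brightness was 0.070 in limb and 0.087 in brain.

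Vegfa encodes the main growth factor of endothelial cells and had 4 probes that did not give 1 answer. At the brightest, on chromosome 17 from 46154387 to 46154446, the signal was 0.91 (WT) and 0.96 (CKO) in limb, and 0.50 (WT) and 0.71 (CKO) in brain. That is 1.03-fold in limb and 1.15-fold in brain. The probe from 46155512 to 46155571, printed as 10 spots, differed by -0.03 ± 0.041 in limb and 0.18 ± 0.048 in brain (SD over 10 spots). Spots were higher in CKO at 2 of 10 in limb and at 10 of 10 in brain. The probe from 46162376 to 46162435 went the opposite way in brain, 1.64-fold lower in CKO, from -1.81 to -2.52. In limb it was 1.16-fold higher. The dim probe from 46169039 to 46169098 differed by 0.30 in limb and 0.11 in brain, where the technical SD is 0.19 and 0.15. With the mean of the 4 probes, Vegfa differed by 0.13 in limb and -0.05 in brain. The direction in brain depended on the probe.

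**Figure D2:**
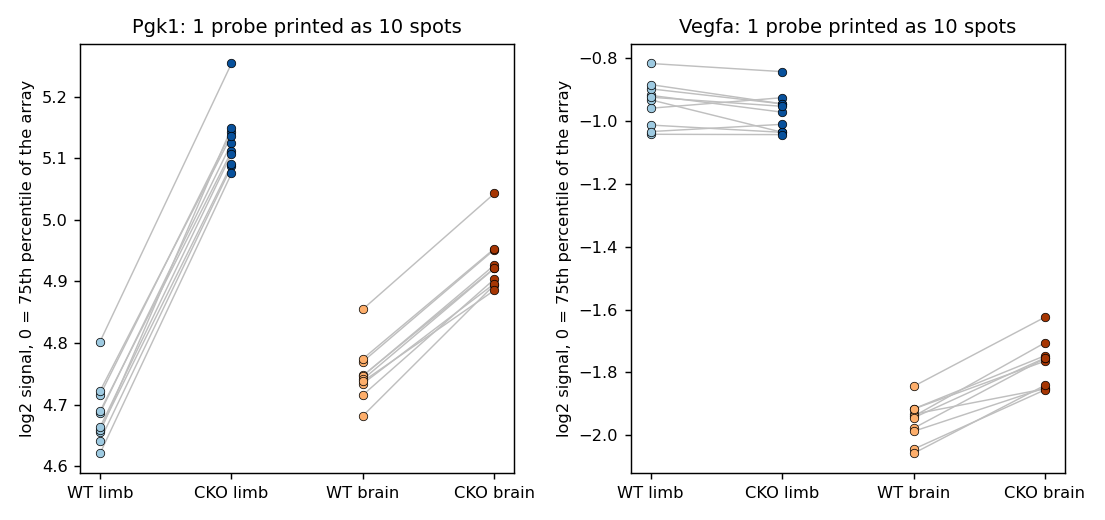
Log2 signal of the 10 spots of 1 probe each for Pgk1 and Vegfa on the 4 arrays, with 0 at the 75th percentile of the array and lines joining the same spot on the WT and CKO arrays of a tissue. The 10 Pgk1 spots of CKO limb all lie above those of WT limb, while the Vegfa spots of both limb arrays overlap.

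Egln3 encodes a HIF prolyl hydroxylase that is itself induced by HIF and feeds back on it. Its probe (chromosome 12, 55280953 to 55281012) read -2.16 (WT) and -1.44 (CKO) in limb, and -2.00 (WT) and -1.70 (CKO) in brain. CKO was higher by 1.65-fold in limb and 1.23-fold in brain. Both CKO arrays were above both WT arrays. Bnip3, which directs removal of mitochondria, was measured on chromosome 7 from 146083077 to 146083136, at 1.61 (WT) and 2.31 (CKO) in limb, and 1.75 (WT) and 2.13 (CKO) in brain. Here too both CKO arrays were above both WT arrays. The differences were 0.70 in limb (1.62-fold) and 0.38 in brain, with a technical SD of 0.026 and 0.022.

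Ankrd37, an ankyrin repeat protein known as a HIF target (probe on chromosome 8, 47082404 to 47082463), was at -0.29 (WT) and -0.08 (CKO) in limb, and 0.46 (WT) and 0.54 (CKO) in brain. It was 1.16-fold higher in limb and 1.06-fold in brain, under the size for a call. Car9 encodes a carbonic anhydrase of the cell surface that helps control pH and is often used as a hypoxia marker. Its probe (chromosome 4, 43526023 to 43526082) read -2.91 (WT) and -3.16 (CKO) in limb, and -2.75 (WT) and -2.68 (CKO) in brain. Car9 differed by -0.24 log2 in limb (1.18-fold lower) and 0.06 in brain, with technical SDs of 0.11 and 0.069. Without scaling between arrays the limb difference was 0.01, when the median of all limb genes was 0.22. With quantile normalization and with median scaling Car9 was at -0.23 in limb.

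Glucose handling genes were next. Slc2a1, the glucose transporter GLUT1 (probe on chromosome 4, 118809864 to 118809923), was at 2.63 (WT) and 2.81 (CKO) in limb, and 2.75 (WT) and 2.88 (CKO) in brain, or 1.13-fold and 1.10-fold higher in CKO. Ldha encodes the lactate dehydrogenase subunit that favours lactate. At its brighter probe, on chromosome 7 from 54110889 to 54110948, it was 6.50 (WT) and 6.84 (CKO) in limb, and 5.67 (WT) and 5.96 (CKO) in brain. The ratio was 1.26-fold in limb and 1.22-fold in brain there, and 1.40-fold and 1.26-fold at the second probe. For Ldha and Pgk1, near-identical copies elsewhere in the mouse genome are known, and binding of such transcripts to the probes was not tested.

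Pgk1 encodes phosphoglycerate kinase, the first ATP-forming enzyme of glycolysis, and its probe printed 10 times gives the firmest technical measurement. Over 10 spots the signal was 4.69 ± 0.052 (WT) and 5.13 ± 0.051 (CKO) in limb, and 4.75 ± 0.045 (WT) and 4.93 ± 0.046 (CKO) in brain (SD). The difference was 0.44 ± 0.022 in limb and 0.18 ± 0.017 in brain, and all 10 spots were higher in CKO in each tissue. The limb spots ranged from 4.62 to 4.80 in WT and from 5.08 to 5.25 in CKO, without overlap. The second Pgk1 probe, which overlaps the first on chromosome X (103398789 to 103398848 against 103398767 to 103398826), differed by 0.41 in limb and 0.15 in brain.

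Pdk1 encodes a kinase that switches off pyruvate dehydrogenase and so holds pyruvate back from mitochondria. Its brighter probe was at 0.57 (WT) and 0.97 (CKO) in limb, and 0.21 (WT) and 0.56 (CKO) in brain. CKO was 1.32-fold higher in limb and 1.27-fold in brain, and the other probe gave 1.28-fold and 1.38-fold. Pdk1, Adm, Bnip3, Egln3 and Ldha were the 5 members at least 1.2-fold higher in both tissues, where 2.21% of 15644 genes passed in both. At the brightest probe all but Car9 were above 0 in both, as were 22.3% of genes. Pgk1 was the sixth in limb. With normexp correction, Adm, Egln3 and Ldha (0.20, 0.20 and 0.25) no longer passed in brain, where Bnip3 and Pdk1 did.

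**Figure D3:**
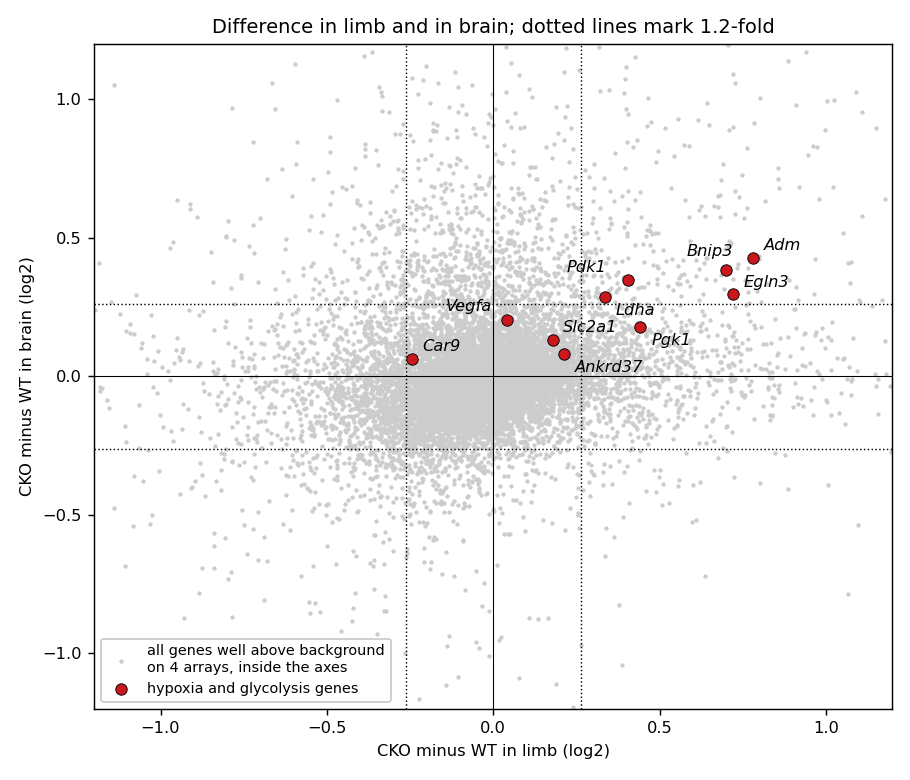
CKO minus WT in limb (x axis) and in brain (y axis), in log2, for the 10 genes (red) and all genes well above background on 4 arrays (grey), with dotted lines at 1.2-fold. Adm, Bnip3, Egln3, Pdk1 and Ldha lie beyond both upper lines, and Car9 lies left of 0.

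Limb and brain share no array, but the labels do not say whether they share embryos, so the tissues may not be separate readings. Adm was first and Car9 last in both, and Pearson's r over the 10 genes was 0.83. With normexp correction Bnip3 was first in both tissues, and with the mean of probes Vegfa (-0.05) was last in brain. Over 15644 genes it was 0.16. Both values are descriptions, since the members were picked as higher in both tissues. The difference was larger in limb than in brain for 8 of 10 genes, by up to 0.42 log2 for Egln3. The share of all genes for which this holds was not counted, so it is not read as a trait of the members. The quartiles of all genes were -0.15 and 0.08 in limb and -0.09 and 0.07 in brain. Whether limb and brain differ could not be tested, because 1 array per group leaves no spread for it. The members also lay at very different brightness. With genes divided by signal into 5 equal bins, Car9 fell in the dimmest bin in limb, Adm and Egln3 in the next, and Slc2a1, Pgk1 and Ldha in the brightest. At least 1.2-fold higher in CKO limb were 14.5% of genes in the dimmest bin and 5.27% in the brightest. In brain these shares were 18.7% and 1.67%. Adm fell in the dimmest brain bin, where the 95th percentile of the differences was 0.65 log2, above its own 0.43.

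The rest of the pathway was described from lists of other genes. Glycolysis genes outside the 10 were mostly higher in CKO limb. All 20 listed were detected there, 18 were above 0, 11 were at least 1.2-fold higher and 0 lower, with a median of 0.28 log2. Of all genes in limb, 41% were above 0, 9.91% passed upward and 13.8% downward. In brain 2 of 20 passed upward and 0 downward, with a median of 0.08. Of all genes in brain, 9.02% passed upward and 5.86% downward. In the brightest bin, where many of the 20 lay, 1.67% passed upward. The 2 listed genes that passed, Slc16a3 and Pfkl, were not in that bin. They lay in the middle bin and the next brighter one, where 7.04% and 3.42% of genes passed upward. Slc16a3, the lactate exporter MCT4, was at 1.56 (WT) and 2.36 (CKO) in limb, and -0.32 (WT) and 0.69 (CKO) in brain. It was 1.74-fold higher in limb and 2.01-fold in brain. Pfkl, a phosphofructokinase subunit, was 1.53-fold and 1.21-fold higher. Aldoc, the aldolase of brain, was 1.95-fold higher in limb and differed by -0.14 in brain. With limma and genotype fitted over both tissues, no gene of 15644 reached an adjusted p under 0.05 (0%), and 977 (6.25%) had an unadjusted p under 0.05. With no gene called anywhere, 0 calls in a list do not show that its genes were unchanged. Slc16a3 had a mean difference of 0.90 ± 0.08 (SE) and an adjusted p of 0.67.

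Other HIF targets were divided. Of 25 listed, 8 were at least 1.2-fold higher in limb and 1 lower. In brain it was 8 of 24 higher and 1 lower. The medians were 0.02 and 0.04. Of all genes, 9.91% and 9.02% passed upward, and 13.8% and 5.86% downward. P4ha2, a collagen prolyl hydroxylase, was 1.29-fold higher in limb and 1.75-fold in brain. Hmox1, which degrades haem, was 1.05-fold and 1.93-fold higher. Lox, which cross-links collagen, differed by -0.10 in limb and 1.04 in brain. Limma called 0 genes of either list.

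Among 10 regulators of HIF, 0 were at least 1.2-fold higher in limb and 2 were lower. In brain 1 was higher and 0 lower. Over all genes, 9.91% were higher and 13.8% lower in limb, and 9.02% higher and 5.86% lower in brain, so these counts are near the shares expected of any 10 genes. Hif1a, the main oxygen-sensitive subunit, differed by -0.13 in limb and 0.02 in brain, and Epas1, which encodes HIF-2 alpha, by 0.04 and 0.27. Hif3a, whose product can restrain HIF, was at -0.42 and -0.25, and Cited2, which competes with HIF for a coactivator, at -0.38 and -0.16. The partner subunits Arnt and Arnt2 differed by 0.04 and 0.17 in limb and by -0.10 and 0.05 in brain. Vhl, the adaptor for destruction, was at -0.05 and 0.01, and the hydroxylases Egln1, Egln2 and Hif1an at 0.20, 0.09 and 0.09 in limb and 0.11, 0.05 and -0.09 in brain. HIF-1 alpha is controlled mainly as a protein, which arrays do not measure. The adjusted limma p of these 10 was 0.67 or above, but no gene of 15644 was called in that fit. It therefore does not show that the 10 were unchanged. Of the 10, 1 had an unadjusted limma p under 0.05, as had 6.25% of all genes.

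**Figure D4:**
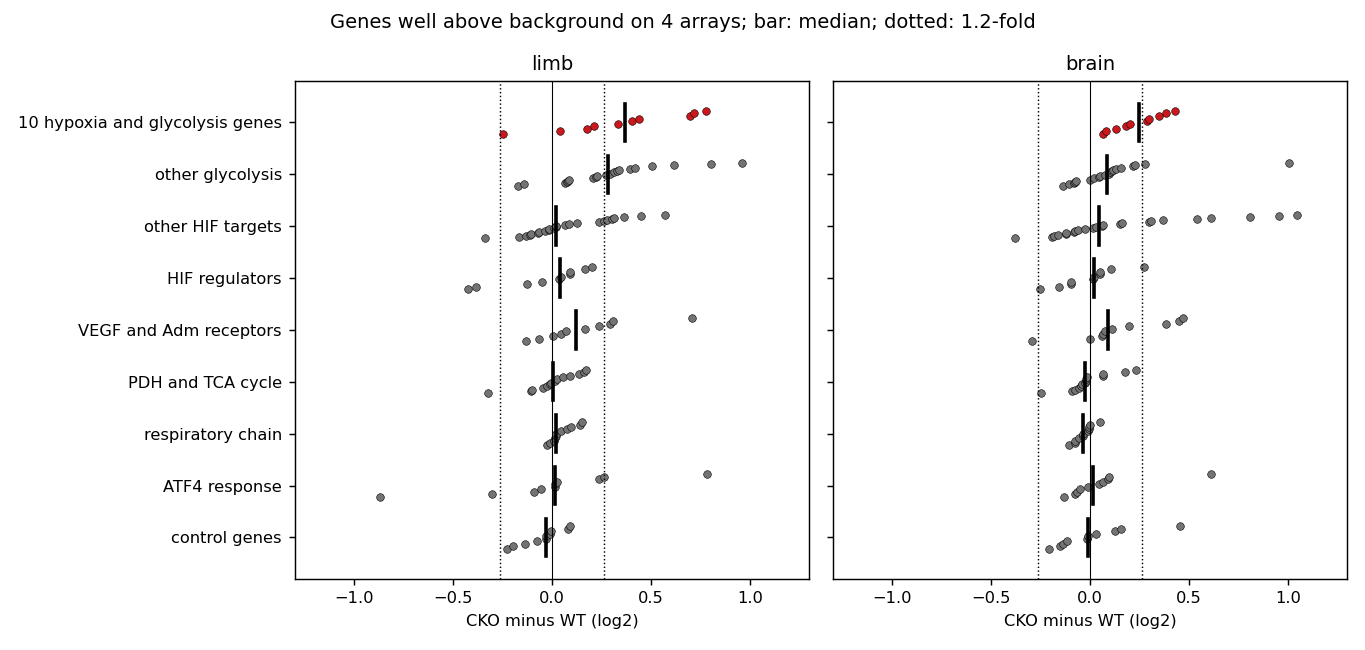
CKO minus WT in limb (left) and brain (right), in log2, for the 10 genes (red) and the other gene lists (grey), each point a gene well above background on 4 arrays, with black bars at medians and dotted lines at 1.2-fold. The other glycolysis genes lie mostly right of 0 in limb, and all respiratory chain genes lie between the dotted lines in both tissues.

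Receptors of the secreted members were measured too. Ramp2, a subunit of the adrenomedullin receptor, was at 2.78 (WT) and 3.48 (CKO) in limb, and 2.56 (WT) and 3.03 (CKO) in brain, 1.63-fold and 1.39-fold higher. Flt1, a VEGF receptor of endothelium, was 1.23-fold and 1.36-fold higher. Over the list of 10 other ligands and receptors, 3 passed upward in each tissue, 0 downward in limb and 1 in brain, with medians of 0.12 and 0.09. Limma called 0 of them. Of all genes, 9.91% passed upward in limb and 9.02% in brain, and 13.8% and 5.86% downward. Endothelial markers had medians of 0.03 in limb, with 0 of 7 at least 1.2-fold higher, and 0.23 in brain, with 2 of 7. Their summed signal went from 13.0 to 13.2 in limb and from 9.59 to 10.7 in brain, relative to the array's 75th percentile, and all 7 were detected on every array. The part of vessel content in the Ramp2 and Flt1 values was not tested.

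Mitochondrial genes had medians near 0. Pyruvate dehydrogenase and citric acid cycle genes had medians of 0.00 in limb and -0.03 in brain, with 0 of 14 higher and 1 lower in limb and 0 either way in brain. Pdk2, a sister kinase of Pdk1, was the 1 lower in limb, by 1.25-fold, and differed by -0.25 in brain. Respiratory chain genes had medians of 0.02 and -0.04, with 0 of 11 past 1.2-fold either way in each tissue. ATF4 and its stress targets had medians of 0.01 and 0.02, with 1 of 10 higher and 2 lower in limb and 1 of 10 higher in brain. Trib3 differed by 0.26 in limb and 0.61 in brain, Asns was 1.72-fold higher in limb and 1.03-fold in brain, and Slc7a11 was 1.83-fold lower in limb and differed by -0.05 in brain. Limma called 0 genes of these 3 lists. The shares over all genes were 9.91% higher and 13.8% lower in limb, and 9.02% higher and 5.86% lower in brain. Control genes had medians of -0.03 and -0.01, with 0 of 10 higher in limb and 1 in brain.

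Markers of other cell types also differed between genotypes. Skeletal muscle markers were at least 1.2-fold higher in limb at 9 of 9 and in brain at 4 of 5 detected, with medians of 0.51 and 0.68. Their summed signal was 233 (WT) and 311 (CKO) in limb, and 2.58 and 3.11 in brain. Myog, Myod1, Ckm and Des were not above background in WT brain, nor Myod1 and Ckm in CKO brain. Cartilage markers had medians of -0.23 in limb and 4.05 in brain, where 4 of 5 were higher. Their sum was 24.3 (WT) and 21.7 (CKO) in limb, and 6.28 and 15.3 in brain, and Matn1, Hapln1, Epyc and Comp were not above background in WT brain. Red cell markers had medians of -1.16 in limb and -0.38 in brain, with 6 of 7 and 4 of 6 at least 1.2-fold lower. Their sum was 1013 (WT) and 466 (CKO) in limb, and 428 and 358 in brain. Epidermis markers were lower in limb at 6 of 6, with a median of -0.64, and in brain 0 of 3 passed either way. All these medians and counts are over markers well above background on both arrays of a tissue, which leaves out any marker above background on 1 of them alone. Among all such genes, 9.91% were at least 1.2-fold higher and 13.8% lower in limb, and 9.02% higher and 5.86% lower in brain. In limb, neuronal markers had a median of 0.75 over 7 of 9. The other two, Elavl3 and Snap25, were not above background in WT limb (-6.64 and -5.53) and stood at -0.26 and 1.10 in CKO limb. In limb, neural progenitor markers had a median of 0.20 over 3 of 6, limb mesenchyme markers -0.23 over 8 of 8 and macrophage markers -0.21 over 7 of 7. In brain, the medians were -0.02 for neuronal markers (9 of 9), -0.15 for neural progenitors (6 of 6), 0.82 for limb mesenchyme (4 of 8) and 0.16 for macrophages (7 of 7). The part of any of these in the members' differences was not tested.

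Across the 4 arrays, the highest value of each member lay on a CKO array. That must hold for any gene higher in CKO in both tissues, as the members were chosen to be, so nothing is read from it. The array with the highest value was CKO limb for Adm, Vegfa, Egln3, Bnip3, Pgk1, Ldha and Pdk1, and CKO brain for Ankrd37, Car9 and Slc2a1. The tissue contrast itself was not used to choose the genes, and it was tested. Limma was fitted over the 4 arrays with genotype as a block, which leaves 1 residual degree of freedom. The WT and CKO arrays of a tissue stood in as its 2 samples. A gene's own spread in that fit is the gap between its CKO minus WT differences in limb and in brain. The members were chosen on those differences, so their SEs and p-values are not free of the choice. They do not measure the spread between embryos. At an adjusted p under 0.05, 5 of the 10 members were called, against 66.5% of 15644 genes. Called lower in brain were 4 members, where 34.4% of genes were, and 1 higher, where 32.1% were. The median of the absolute differences was 0.32 log2 for members and 0.54 for all genes.

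Ldha was lower in brain than in limb by 0.83 log2 between WT arrays and by 0.88 between CKO arrays. The fitted difference was -0.85 ± 0.055 (SE) with an adjusted p of 0.0074. Ankrd37 went the other way, higher in brain by 0.75 in WT and 0.62 in CKO, for a fit of 0.69 ± 0.067 and an adjusted p of 0.012. Adm was lower in brain by 0.49 in WT and 0.84 in CKO, for a fit of -0.66 ± 0.12 and an adjusted p of 0.032. Pdk1 (-0.38 ± 0.056, adjusted p = 0.021) and Vegfa (-0.33 ± 0.073, adjusted p = 0.045) were lower in brain as well. These calls rested on few arrays. With 1 array left out the fit had no block, and the lone array of a tissue was assumed to vary like the others. Without WT brain, the limma adjusted p of Ldha was 0.075, and without CKO brain that of Ankrd37 was 0.050, just over the threshold. Each kept its call without either limb array. The calls of Adm and Pdk1 were lost without the block on all 4 arrays, at limma adjusted p of 0.15 and 0.17. Adm also lost its call without CKO limb (0.35), WT brain (0.43) or CKO brain (0.18), and Pdk1 without any 1 array, at 0.076 to 0.50. With quantile normalization Adm was at a limma adjusted p of 0.051. When genes above background on at least 1 array were tested, Adm was at 0.065 and Vegfa at 0.085. Vegfa also lost its call without WT limb (0.093), CKO limb (0.12) or WT brain (0.15).

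Probes of 1 gene did not give the same tissue difference. The second Pdk1 probe, on chromosome 2 from 71739688 to 71739747, was lower in brain by 1.70 in WT and 1.60 in CKO, while the brighter one, from 71741820 to 71741879, was lower by 0.35 and 0.41. Both Pdk1 probes carry the same accession in the files. For Vegfa, the probe printed 10 times was lower in brain by 1.01 in WT and 0.80 in CKO, against 0.41 and 0.25 at the brightest. The Vegfa probe from 46162376 to 46162435 was higher in brain by 0.19 in WT and lower by 0.73 in CKO. Ldha and Pgk1 probes lay close together, with Ldha at -0.83 and -0.73 and Pgk1 at 0.06 and 0.07 between WT arrays.

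**Figure D5:**
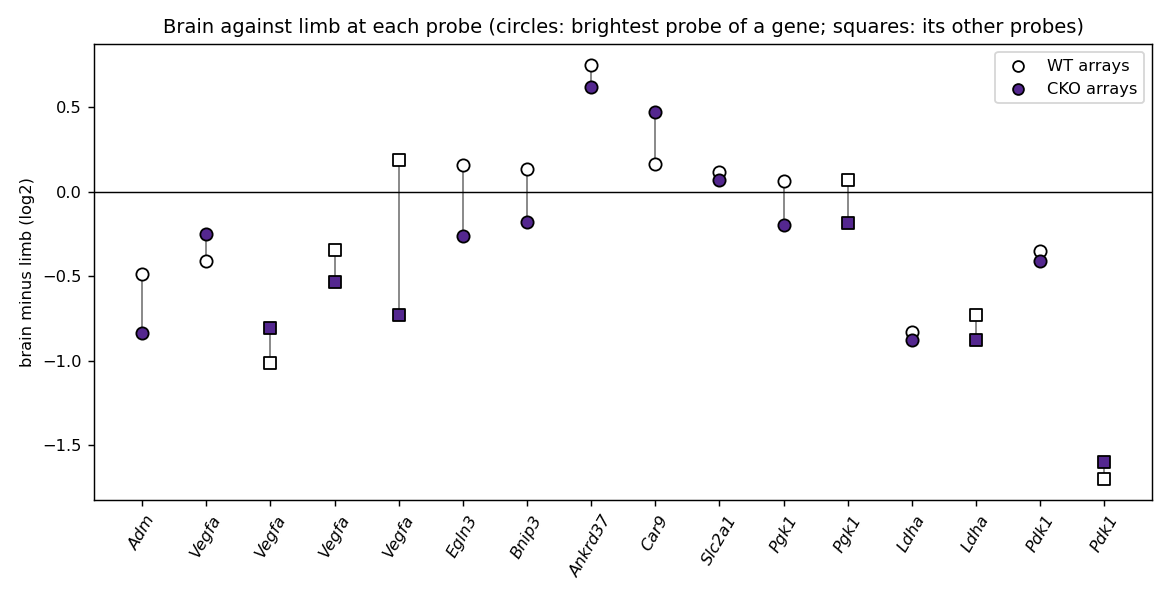
Brain minus limb, in log2, at each of the 16 probes, between WT arrays (white) and between CKO arrays (purple), with circles for the brightest probe of a gene and squares for its other probes. Ldha lies below 0 and Ankrd37 above it in both genotypes, and the second Pdk1 probe lies at -1.70 and -1.60, far from the first.

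The remaining members were not called between tissues. Bnip3 differed by -0.02 ± 0.11 (limma adjusted p = 0.87), Egln3 by -0.05 ± 0.14 (limma adjusted p = 0.76) and Pgk1 by -0.07 ± 0.098 (limma adjusted p = 0.59). In all 3 the sign turned with genotype, since brain was higher than limb between WT arrays, by 0.13, 0.16 and 0.06, and lower between CKO arrays, by 0.18, 0.26 and 0.20. Slc2a1 differed by 0.09 ± 0.055 (limma adjusted p = 0.23), with near-equal values in both genotypes, 0.12 and 0.07. Car9 differed by 0.32 ± 0.11 (limma adjusted p = 0.100) and was higher in brain by 0.17 in WT and 0.47 in CKO. Without WT limb, Car9 was called, at an adjusted p of 0.023.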

How the data were processed

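Single-colour arrays of 4 samples (1 per group) were analysed from the intensities that the authors deposited. Per the submitters' processing notes they come from Agilent Feature Extraction 9.5.3.1, with background subtraction and spatial detrending set in the headers, and per the file headers probe positions are on mm9. The deposited series table holds the same intensities, within 0.0071 log2. Control spots and outlier spots were left out, log2 signals were set to the 75th percentile of each array, and spots of a probe were averaged. A gene is its probe with the highest mean, under the name in the files. Within a tissue, differences are CKO minus WT, called at 1.2-fold among genes well above background on both arrays. Tissue and genotype were fitted together with limma 3.58.1 (R 4.3.3) with Benjamini-Hochberg adjustment over 15644 genes well above background on all 4 arrays. The scripts were tested on simulated data. Other steps used Python 3.11.15.

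The members, the 7 pathway lists, the control list, the 9 marker lists and the tests were chosen with earlier results of these data known. Named beside the members were all HIF regulators and, per other pathway list, up to 3 genes with the largest mean difference in each direction if at least 1.2-fold. Alternatives were normexp background correction, other scalings, other probe and flag rules, the series table, a 1.5-fold call, fits without blocks and leaving out arrays. The number of arrays limits the precision. Promoter windows are from a RefSeq table (GRCm38.p6), which held all 10 members. No mm9 annotation was used here, so the exon or UTR that a probe lies in is not given.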

Additional observations from a re-analysis of the deposited data

How the results depend on the processing

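With 1 array per group there were no replicate numbers to pair. The tissue contrast had genotype as a block, and without that block the limma adjusted p of Adm was 0.15 and that of Pdk1 0.17, so both lost their calls. The count of members at least 1.2-fold higher and their median kept within 1.5 times and within the technical SD of the reported value under quantile normalization, median scaling, the mean of probes, kept flags and the series table. With no scaling, which moved the median of all genes to 0.22 in limb and 0.13 in brain, the members' median was 0.62 in limb and 0.40 in brain (8 members called in brain). It stood 0.40 and 0.27 above that of all genes with and without scaling. Scaling moves all genes of an array alike, so it cannot change this gap. With normexp 2 members were called in brain, at a median of 0.19, and at 1.5-fold 3 were called in limb and 0 in brain. The cause of the normexp change was not tested. Leaving out 1 array gave 7197 to 10106 genes called between tissues, against 10409. The uncalled tissue differences ranged from -0.41 to 0.31 for Egln3, -0.37 to 0.33 for Bnip3 and -0.29 to 0.15 for Pgk1, with the sign turned without CKO limb and without WT brain, and that of Slc2a1 was -0.0012 with quantile normalization. Genotype fitted over both tissues called 0 genes under every alternative run.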

Other observations

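Some HIF targets that modify collagen, picked out after their values were seen, were higher in CKO brain. P4ha1 differed by 0.28 in limb and 0.37 in brain, P4ha2 by 0.36 and 0.81, Plod2 by 0.24 and 0.54 and Lox by -0.10 and 1.04, in log2. Markers of cartilage had a median of 4.05 in the same brain pair and -0.23 in limb. The part of cartilage in the values of these 4 genes was not tested. Edn1, the vasoconstrictor endothelin, differed by -0.11 in limb and 0.61 in brain. Other HIF targets of the same list went the opposite way. Car12, the 1 at least 1.2-fold lower in limb, differed by -0.34 there and 0.30 in brain. Ndrg1, the 1 lower in brain, differed by -0.07 in limb and -0.38 in brain, and Bnip3l by -0.17 in each. In each tissue 8 of the list were at least 1.2-fold higher. The difference of CKO from WT was larger in limb than in brain for 16 of the 20 listed glycolysis genes. The share of all genes for which this holds was not counted. In limb and brain, Aldoa differed by 0.50 and 0.12, Eno1 by 0.39 and 0.22, Tpi1 by 0.34 and 0.23 and Pkm2 by 0.33 and -0.11. The exceptions were Slc16a3 (0.80 and 1.01), Eno2 (0.08 and 0.13), Slc2a3 (-0.14 and 0.16) and Slc16a1 (-0.17 and 0.02). The difference between limb and brain was not tested for any of these genes.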
